A study of Mus musculus with 2 samples.

Results

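Sonic hedgehog is a secreted signalling protein that patterns the ventral forebrain. The 9 genes described here carry the pathway from the ligand to the nucleus: the ligand gene Shh, Disp1, Ptch1, Hhip, Smo, Sufu and the transcription factor genes Gli1, Gli2 and Gli3. They were taken by Ensembl identifier, and all 9 were found among the 19202 genes of the deposited RNA sequencing table. The tissue was telencephalon of mouse embryos at embryonic day 12 on the C57BL/6 background, a stage when its wall holds dividing progenitors and early neurons, and the labels' protocols say that the cerebral cortex was dissected. One sample was a conditional knockout of the histone variant H2A.Z (genotype H2AZcKO, called H2AZ cKO here) and the other a control whose H2A.Z allele is floxed (H2AZfl/fl). No source used here names the Cre driver that removes the allele, and the cells that carry the deletion cannot be named. Each genotype has 1 column of counts, here called its library, so no difference below has a replicate check and none was tested between genotypes.

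In the pathway as it is known, Dispatched releases the lipid-modified ligand from the cells that make it. Patched holds Smoothened inactive until it binds the ligand. Active Smoothened, in the primary cilium, frees the GLI proteins from Sufu, and the GLI proteins then switch on target genes, of which Gli1, Ptch1 and Hhip are themselves the classical ones. In the embryonic telencephalon Shh is made ventrally, and Gli3, mostly as a repressor, is abundant dorsally.

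The ligand gene was higher in the H2AZ cKO while most of the genes downstream of it were lower. Shh stood at 1.83 times the control. Of the other 8 members, 7 lay below the control, with Gli1 lowest at 0.711 times, and Disp1 lay slightly above it. Each ratio divides the H2AZ cKO by the floxed control once the libraries were scaled by TMM, and the range after each is its exact 95% binomial (Clopper-Pearson) interval, which covers counting error only. The interval lay below 1 for 5 of the 7 lower members and included 1 for Smo, Hhip and Disp1. Levels are in CPM (counts scaled to a common library total) after that scaling. For log2 ratios 1 CPM was added to each level, which shrinks the ratio of low genes, and fold sizes in counts of genes are on that scale. A gene counts as tested when its higher library reached 1 CPM. All 9 members did, Hhip just so.

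Total counts were 8839840 for the H2AZ cKO library and 8891198 for the control library. The targeted gene H2afz stood at 1664 counts against 2605, a ratio of 0.661 (0.621 to 0.703), and its counts cover the whole gene, not the deleted part alone. The libraries also differed in sex-linked transcripts: Xist was at 6384 against 200 counts and Kdm5d, on the Y chromosome, at 5 against 647. Genotype, the sex of the embryos and any difference in dissection cannot be told apart with 1 library each.

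Start regions are shown for Ptch1, Gli2 and Sufu because the interval of each gene's ratio lay below 1 and the annotation places no exon there. Each run is the 250 bases before the RefSeq start in GRCm38.p6, read 5′ to 3′ on the gene's strand, with CG dinucleotides in capitals. Of the 9 members, 7 had an entry in the promoter table, and Shh and Gli1 are named only.
Ptch1, chr13:63565736-63565985, minus strand: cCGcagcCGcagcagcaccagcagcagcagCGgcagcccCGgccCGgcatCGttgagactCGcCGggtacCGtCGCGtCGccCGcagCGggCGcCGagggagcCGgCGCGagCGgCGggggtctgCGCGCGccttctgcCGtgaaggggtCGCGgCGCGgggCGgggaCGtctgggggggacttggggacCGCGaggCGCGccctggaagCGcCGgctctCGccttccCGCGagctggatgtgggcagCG
Gli2, chr1:119053620-119053869, minus strand: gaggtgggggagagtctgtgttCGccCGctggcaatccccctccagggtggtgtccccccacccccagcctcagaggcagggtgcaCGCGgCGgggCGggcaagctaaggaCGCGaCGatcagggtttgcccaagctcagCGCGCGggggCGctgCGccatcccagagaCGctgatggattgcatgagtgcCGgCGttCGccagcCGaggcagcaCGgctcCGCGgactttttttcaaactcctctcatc
Sufu, chr19:46396646-46396895, plus strand: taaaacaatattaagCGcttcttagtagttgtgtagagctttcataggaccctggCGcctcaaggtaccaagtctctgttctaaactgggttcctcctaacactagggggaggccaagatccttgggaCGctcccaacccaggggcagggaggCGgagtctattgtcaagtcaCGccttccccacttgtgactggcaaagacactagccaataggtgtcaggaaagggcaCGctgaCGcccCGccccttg
The Ptch1 region held 41 CG dinucleotides and 78.4% G and C, the Gli2 region 22 and 67.2%, and the Sufu region 8 and 54.0%, beside medians of 6 and 52.4% over 32851 promoters of this length. Among the members not shown, Gli3 held 34 and 72.8%, Hhip 28 and 76%, and Smo 15 and 68.4%. The Disp1 windows held 7 and 53.2%, and 2 and 48.8%. The intervals of the ratios of Hhip, Smo and Disp1 include 1. Of the members with an entry only Disp1 had a ratio above 1. Whether CG content goes with a lower ratio therefore cannot be told from these genes and was not tested. The GLI binding sequence GACCACCCA, searched on both strands, was in none of the 8 promoters of the 7 members and in 0.225% of all promoters. With up to 1 letter different it was again in none of the 8 and in 5.79% of all. The absence says only that these letters are not in these windows. The Ptch1 window lies inside the gene as annotated, outside its annotated exons.

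Shh (ENSMUSG00000002633, chromosome 5, 28456815 to 28467256 on the minus strand in the deposited positions) had 62 counts in the H2AZ cKO against 35 in the control library, or 7.11 CPM against 3.88 CPM. The H2AZ cKO was the higher library, and the counting ranges of the 2 levels, 5.45 to 9.12 CPM and 2.70 to 5.40 CPM, were narrowly apart. The ratio was 1.83 (1.19 to 2.86) and the log2 ratio 0.73. Shh was the single member at least 1.5-fold higher, as were 1.92% of the 14586 genes tested, and the single one at least 25% higher, as were 7.94%. It was also the single member with an interval wholly above 1, as 12.6% of tested genes had. Of all genes tested, 99.1% had a lower log2 ratio. The gene is overlapped on the opposite strand by 9530036O11Rik, over 446 exonic bases, and by Gm26894, which had 1 and 3 counts. No source used here says whether the counting used strand, and reads of overlapping genes cannot be told apart without it. Of the nearest tested protein-coding neighbours of Shh, 2 on each side, none had an interval above 1. Rbm33, 37.6 kb away, was at a ratio of 0.848 (0.782 to 0.918), Cnpy1 at 1.09 (0.560 to 2.11) and Rnf32 at 1.21 (0.882 to 1.65). Lmbr1, whose introns are known to hold the limb enhancer of Shh, was at 1.0 (0.806 to 1.3). The intervals of Cnpy1, Rnf32 and Lmbr1 overlapped that of Shh.

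Disp1, which encodes the transporter-like protein that releases the ligand (ENSMUSG00000030768, chromosome 1, 183086266 to 183221522), had 207 counts against 196. The level was 23.7 CPM in the knockout library and 21.7 CPM in the control library, with a ratio of 1.09 (0.894 to 1.34). The interval of the ratio includes 1, so no difference was detectable for Disp1 at this depth.

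**Figure D1:**
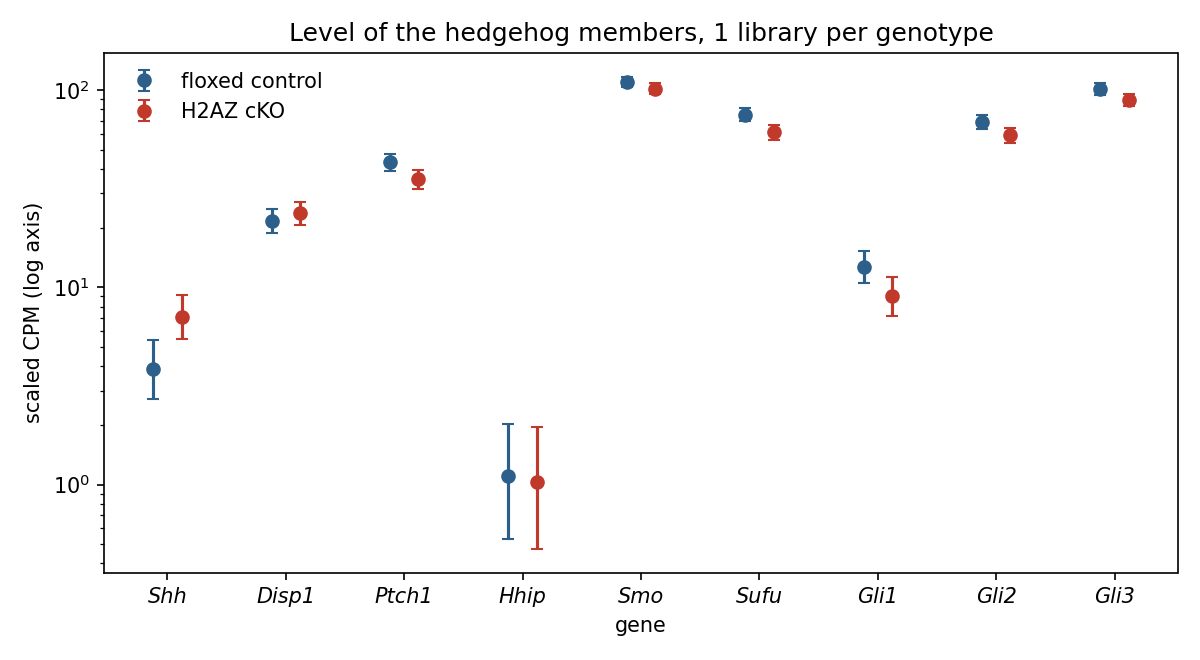
Scaled CPM (log axis) of the 9 genes in the floxed control (blue) and the H2AZ cKO (red), 1 library each, with bars for the exact 95% Poisson counting range. The red point of Shh stands above the blue one, at 7.11 against 3.88 CPM with ranges narrowly apart, and that of Disp1 slightly above. Gli1, Sufu, Gli2, Gli3, Ptch1, Smo and Hhip have the red point below.

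Ptch1, the receptor that is also a GLI target (ENSMUSG00000021466, chromosome 13, 63508328 to 63573598), had 308 counts against 388. The knockout library was the lower one, 35.3 CPM beside 43.0 CPM, and the counting ranges of these levels just overlapped. The ratio of 0.821 had an interval below 1 (0.705 to 0.956), with a log2 ratio of -0.28. Hhip, a membrane protein that binds and sequesters the ligand (ENSMUSG00000064325, chromosome 8, 79966115 to 80058006), had 9 counts against 10. At 1.03 CPM and 1.11 CPM its libraries overlapped, and the interval of its ratio of 0.931 ran from 0.335 to 2.55. No difference in Hhip was detectable at this depth.

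Smo, the transducer that Patched holds inactive (ENSMUSG00000001761, chromosome 6, 29735503 to 29761365), had 887 counts against 993. Its level was 102 CPM against 110 CPM, a ratio of 0.924 (0.843 to 1.01) that includes 1. Sufu, the inhibitor that binds GLI proteins in the cytoplasm (ENSMUSG00000025231, chromosome 19, 46396896 to 46488804), had 532 counts against 676. The knockout library was lower, 61.0 CPM beside 75.0 CPM, and the counting ranges were apart. The ratio was 0.814 (0.725 to 0.913) and the log2 ratio -0.29. Within a library Sufu made up 37.5% (35 to 40.1) of the summed counts of Sufu and Smo in the H2AZ cKO and 40.5% (38.1 to 42.9) in the control, and these ranges overlapped.

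The GLI genes were all lower in the H2AZ cKO, Gli1 furthest. Gli1, an activator and target of the pathway (ENSMUSG00000025407, chromosome 10, 127329889 to 127341589), had 79 counts against 115. Levels of 9.06 CPM and 12.8 CPM gave a ratio of 0.711 (0.527 to 0.955), and 5.32% of tested genes had a log2 ratio lower than its -0.45. Gli2, the main activator (ENSMUSG00000048402, chromosome 1, 118834132 to 119053619), had 516 counts against 622, and its levels of 59.2 CPM and 69.0 CPM gave a ratio of 0.858 (0.762 to 0.966). Gli3, the main repressor (ENSMUSG00000021318, chromosome 13, 15463235 to 15730026), had 777 counts against 914. Its levels of 89.1 CPM and 101 CPM gave a ratio of 0.879 (0.798 to 0.969). For each GLI gene the counting ranges of the 2 levels overlapped, although the interval of the ratio lay below 1. The make-up of the GLI transcripts was close between the libraries: Gli3 took 56.6% (54.0 to 59.3) of their summed counts in the H2AZ cKO and 55.4% (52.9 to 57.8) in the control. Gli2 took 37.6% and 37.7%. Gli1 took 5.76% (4.58 to 7.12) and 6.97% (5.78 to 8.30), ranges that overlap. Gli1 is overlapped on the opposite strand by Gm47200 over 265 exonic bases and by Arhgap9, which had 2 counts in each library, and Gli3 by Gm6556 over 188, with 16 and 18 counts.

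**Figure D2:**
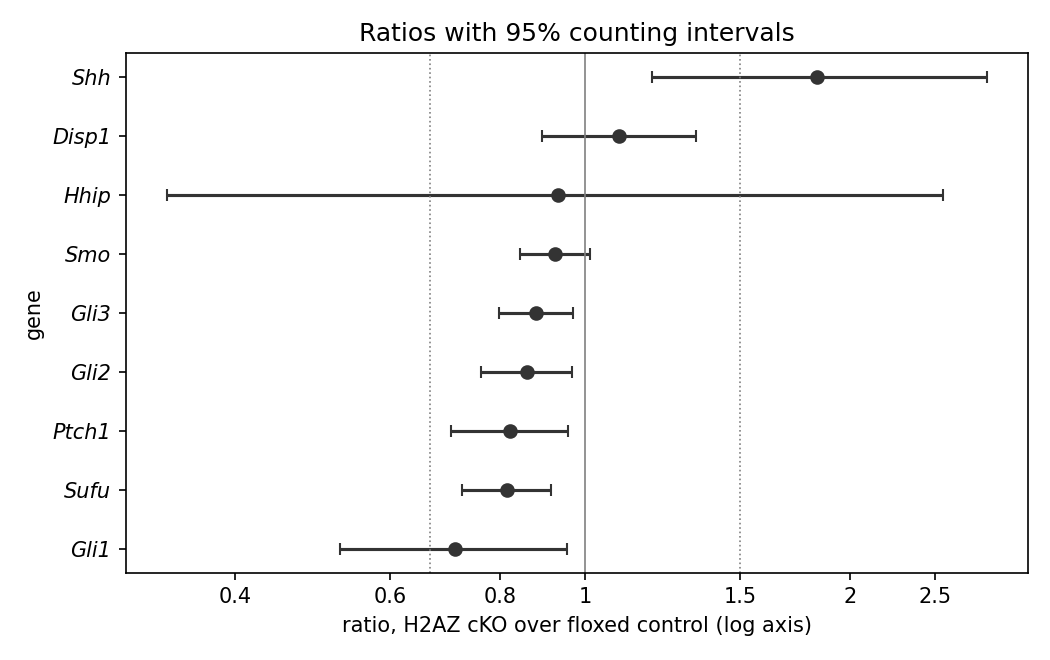
Ratio of H2AZ cKO over floxed control (log axis) for each member, with exact 95% binomial intervals from the counts, a solid line at 1 and dotted lines at 1.5-fold in each direction. Shh lies at 1.83 with its interval above 1, and the intervals of Gli1, Sufu, Ptch1, Gli2 and Gli3 lie below 1.

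As a set, 7 of 9 members were below 0 on the log2 scale, where 49% of all tested genes were, and 2 were above 0, where 51% were. The interval lay wholly below 1 for 5 of 9 members, against 11.2% of tested genes, and deep genes have narrower intervals: 5 of 9 members exceeded the median count of tested genes in both libraries (247 and 258). No member was 1.5-fold lower, as 3.03% of tested genes were, and 1 member, Gli1, was lower by at least 20%, as 9.79% were. The members' median log2 ratio was -0.18, beside 0.01 for all genes tested. With a joint trend of the ratio on transcript length, GC content and level removed, the median was -0.12. Ptch1, Gli2 and Gli3 moved from -0.28, -0.22 and -0.18 to -0.14, -0.14 and -0.10, while Gli1 stood at -0.40, Sufu at -0.26 and Shh at 0.78. No interval was computed with the trend removed. The 5 intervals below 1 are those of ratios with the trend left in. Of the 9 members, 8 have more exonic bases than the median protein-coding gene tested.

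**Figure D3:**
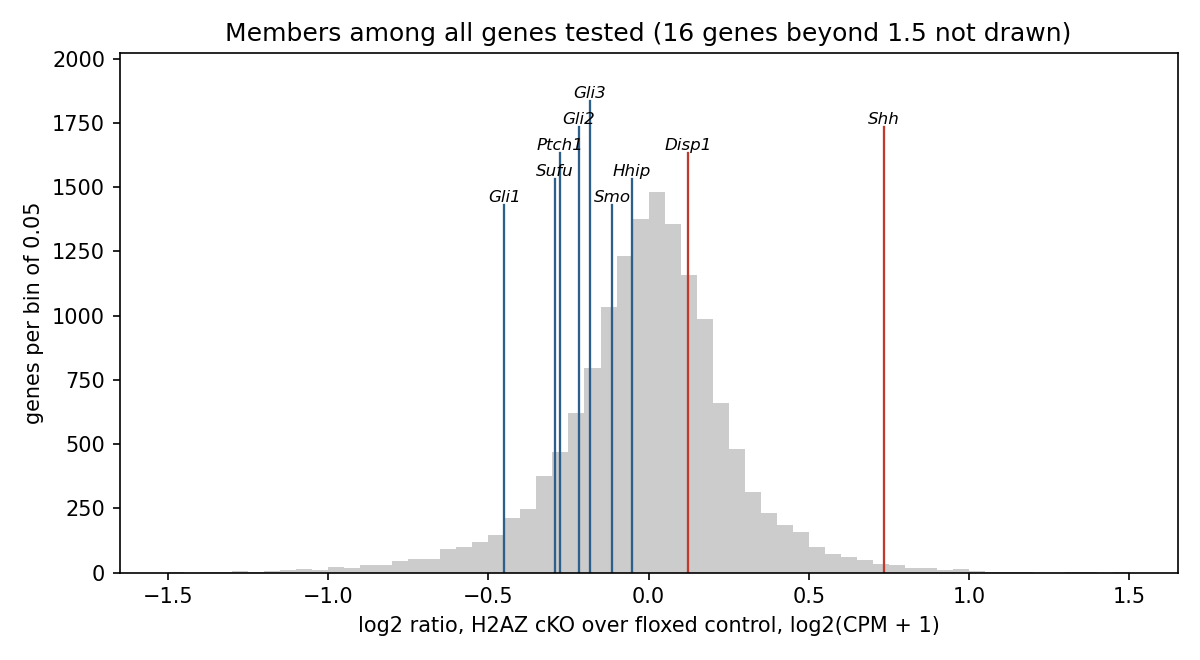
Log2 ratios of the 14586 genes tested (grey histogram, bins of 0.05, with 16 genes beyond 1.5 in either direction not drawn), with a line for each member, blue below 0 and red above. Shh lies in the right tail at 0.73, Gli1 at -0.45 at the left edge of the members, and most members sit left of the peak.

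The authors' deposited table gives 4 members, Sufu, Gli3, Gli2 and Ptch1, an adjusted p under 0.05 and a lower level in the knockout, as 5.97% of its genes do, and gives 0 members one with a higher level, as 3.57% have. The authors' deposited table gives adjusted p-values of 0.00129 for Sufu, 0.0177 for Gli3, 0.0276 for Gli2 and 0.0341 for Ptch1. It gives 0.0501 for Shh and 0.0825 for Gli1. How these p-values were made is named in no source used here, and the table shows 1 column per genotype, so they are given as the authors' values only.

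The ligand and its downstream genes were then set against each other within each library, which needs no scaling between libraries. Shh made up 16.8% (13.1 to 21) of the summed counts of Shh and Ptch1 in the H2AZ cKO and 8.27% (5.83 to 11.3) in the control. With Gli1 the share of Shh was 44.0% (35.6 to 52.6) against 23.3% (16.8 to 30.9). The ranges were apart for Smo, Sufu, Gli2 and Gli3 as well, while with Disp1 (23.0% against 15.2%) and Hhip (87.3% against 77.8%) they overlapped. Put as a quotient, the ratio of Shh exceeded that of Gli1 by a factor of 2.57 (1.51 to 4.41), that of Sufu by 2.25 (1.44 to 3.57) and that of Ptch1 by 2.23 (1.41 to 3.57). Over the 8 pairs the factor ran from 1.68 (Disp1) to 2.57, and Hhip alone had an exact conditional interval that includes 1 (0.646 to 6.02). All 8 factors rest on the same 97 Shh reads, so they are not separate observations.

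**Figure D4:**
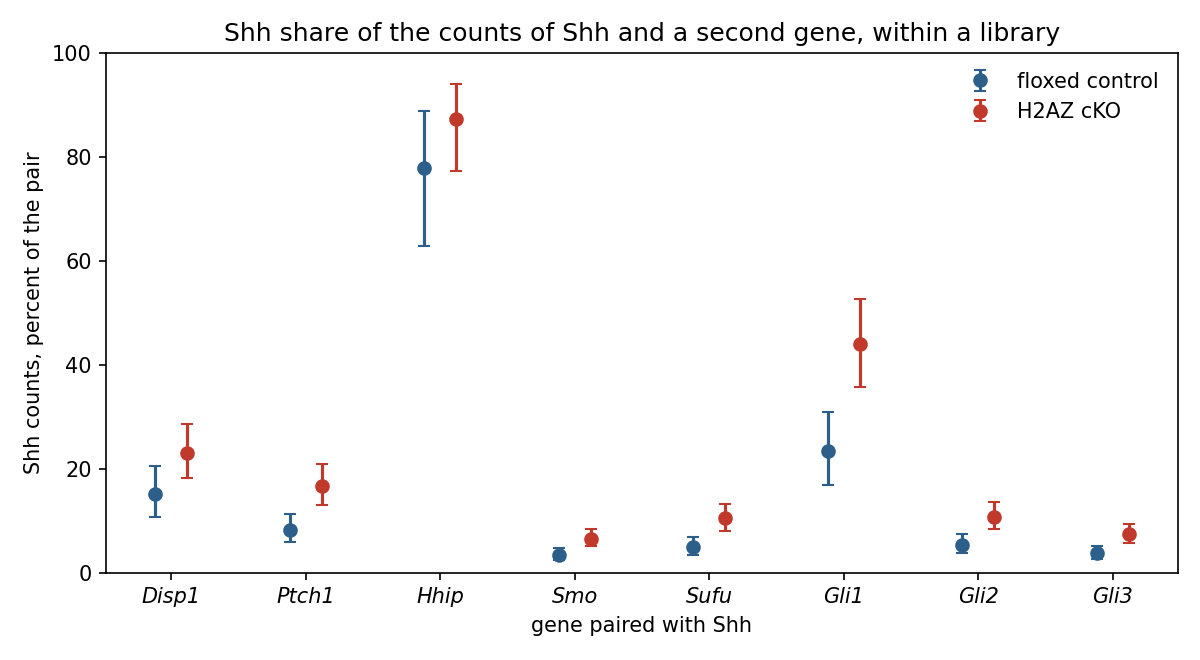
Shh counts as a percent of the summed counts of Shh and a second member, in the floxed control (blue) and the H2AZ cKO (red), with exact 95% binomial intervals. The red point is above the blue one in each pair, and the intervals are apart for Ptch1, Smo, Sufu, Gli1, Gli2 and Gli3.

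Summed, Ptch1, Smo, Sufu and the GLI genes stood at 3099 counts against 3708, a ratio of 0.865 (0.824 to 0.907), with single genes from 0.711 to 0.924. With Disp1 and Hhip included, the 8 members other than Shh stood at 3315 against 3914. That ratio was 0.876 (0.836 to 0.918), with single genes from 0.711 to 1.09. Smo and Gli3 gave the most counts to both sums. In bulk tissue fewer cells of a type and less RNA per cell cannot be told apart.

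Per length the order of the members was nearly the same in the libraries. In CPM per kilobase of exon, Smo was highest, at 18.1 in the H2AZ cKO and 19.6 in the control. Gli3 (9.30 and 10.6), Gli2 (8.62 and 10.04) and Sufu (7.94 and 9.75) followed. In each library the counting range of Gli2 overlapped those of Gli3 and Sufu. Disp1 came next at 4.55 and 4.16. Shh stood differently in the order: it was at 2.5 in the H2AZ cKO, beside 2.49 for Ptch1 and 1.81 for Gli1, whereas in the control it was at 1.36, under 3.03 for Ptch1 and 2.55 for Gli1. In the control the range of Shh (0.95 to 1.90) lay below those of Ptch1 and Gli1, and in the H2AZ cKO (1.92 to 3.20) it overlapped both. Hhip was lowest, at 0.114 and 0.122. The length of Ptch1 sums all annotated exons and is long, so its value per kilobase is a low estimate.

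Other genes of the pathway were read from lists by role. Among those for release and modification of the ligand 9 of 14 were tested, with 5 above 0 and 4 below and a median log2 ratio of 0.01 that turned slightly negative under scaling by total count. Of all tested genes 51% were above 0 and 49% below. Hhat, the acyltransferase that attaches palmitate to the ligand, had 31 counts against 55 (ratio 0.583, 0.363 to 0.922). Disp2, a relative of Disp1, was at 537 against 730 (0.761, 0.680 to 0.852). These were the genes of that list with an interval below 1, and none had one above. Of all tested genes 11.2% and 12.6% had such intervals. The other ligand genes were near the floor: Ihh had 4 counts in each library and Dhh had 3 and 2.

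Genes of ligand reception were close to the control. Of 16 tested, 12 were below 0 and 4 above (49% and 51% of all tested genes), with a median of -0.06 and none 1.5-fold away. The co-receptor Cdon was at 1540 counts against 1808 (0.881, 0.823 to 0.944). The co-receptors Boc (0.963, 0.869 to 1.07) and Gas1 (1.08, 0.999 to 1.17) had intervals that include 1. They were named after their values were seen.

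Among 36 genes for signal transduction and processing of GLI proteins, 25 were below 0 and 11 above, with a median of -0.03. Of all tested genes 49% were below 0 and 51% above. Intervals lay below 1 for 3 of the 36, beside 11.2% of all tested genes. These were Adcy3, an adenylyl cyclase of cilia (0.713, 0.540 to 0.939), the kinase gene Stk36 (0.749, 0.648 to 0.863) and Csnk1g1 (0.854, 0.745 to 0.979). Intervals lay above 1 for 4 of the 36, beside 12.6% of all tested genes. Among them were Gnas, the stimulatory G protein subunit (1.18, 1.05 to 1.32), and the ubiquitin ligase gene Cul3 (1.1, 1.02 to 1.18). Genes of the cilium leaned lower: 28 of 40 tested were below 0, where 49% of all tested genes were. An interval below 1 was found for 9 of the 40, beside 11.2% of all tested genes, and one above 1 for 0, beside 12.6%. The median was -0.09. Wdr19, a subunit of the retrograde transport complex, was at 124 counts against 226 (0.568, 0.452 to 0.710). Dync2li1, of the motor that drives that transport, was at 0.702 (0.558 to 0.881), the transition zone gene Rpgrip1l at 0.712 (0.551 to 0.918) and Ift172 at 0.741 (0.638 to 0.861). The deposited annotation assigns 107 further genes to the smoothened signalling pathway. Of these, 46 are in the lists by role given above and in the next paragraphs. Of 91 tested, 58 were below 0 (49% of all tested genes), with 20 intervals below 1 (11.2% of all), 6 above (12.6% of all) and a median of -0.06. Hipk2, a kinase gene, had 216 counts against 483 (0.463, 0.392 to 0.544), and the Notch target gene Hes5 had 380 against 243 (1.62, 1.37 to 1.91).

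GLI-responsive genes outside the members lay on both sides of the control. Of 15 tested, 8 were above 0 and 7 below (51% and 49% of all tested genes), with a median of 0.01. Under scaling by total count or with the deposited CPM 9 were below 0 and the median turned slightly negative, and with a floor of 5 CPM 3 of the genes left were below 0. Nkx2-1, the homeobox gene of the medial ganglionic eminence, had 1352 counts against 883 (1.58, 1.45 to 1.73), and Olig2 stood at 1.3 (1.13 to 1.49). Mycn and Ccnd1, which drive proliferation, were at 1.29 (1.19 to 1.40) and 1.27 (1.16 to 1.39). Nkx2-2, a target in more caudal ventral tissue including the hypothalamus, had 5 counts against 44 (0.118, 0.0364 to 0.296), and Foxd1 had 10 against 26 (0.398, 0.171 to 0.853).

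Of 13 tested genes that regulate Shh in the forebrain or mark the cells that make it, 9 were above 0 and 4 below, with 7 intervals above 1 and 2 below. Of all tested genes 51% were above 0 and 49% below, and 12.6% and 11.2% had intervals above and below 1. The count below 0 depended on the scaling: it was 7 of 13 under scaling by total count, with DESeq2 size factors and with the deposited CPM. Nkx2-1, Lhx6 and Lhx8 also stand in the list of ventral telencephalic markers, as does Olig2 of the GLI-responsive list. Six6, Rax and the GLI-responsive Nkx2-2 also stand in the list of hypothalamic and diencephalic markers, so these lists are not separate observations. Lhx6 and Lhx8, LIM homeobox genes of the medial ganglionic eminence, were at 1.33 (1.21 to 1.46) and 1.93 (1.63 to 2.29). Six6 had 2 counts against 11 (0.188, 0.0203 to 0.862), and Zic2 was at 0.829 (0.736 to 0.935). Rax, on the list but not tested because neither library reached 1 CPM, had 0 counts against 9. Shh kept about the same share against Nkx2-1 in the libraries, at 4.38% (3.38 to 5.59) of their summed counts in the H2AZ cKO and 3.81% (2.67 to 5.26) in the control, with overlapping ranges. This pair was outside the planned shares. No other marker was set against Shh in this way, so the share holds for Nkx2-1 alone.

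**Figure D5:**
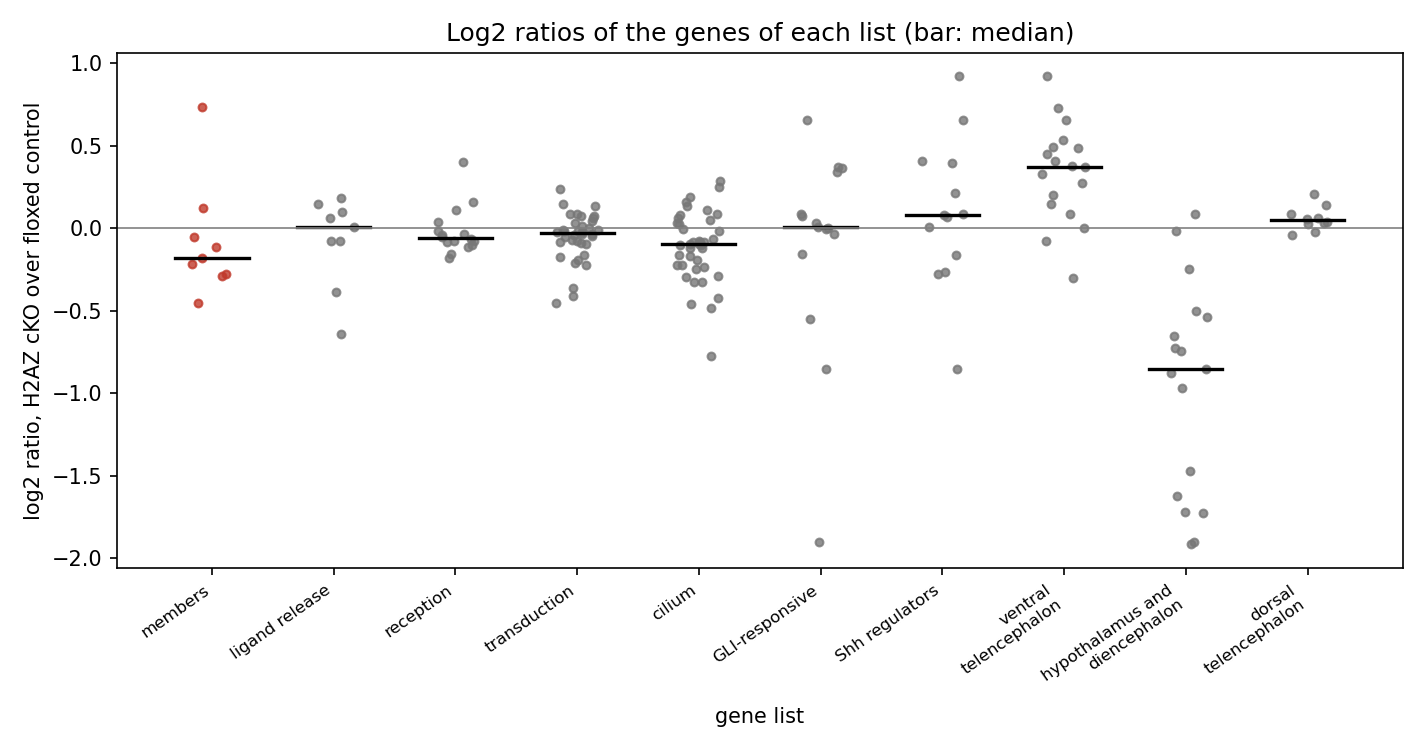
Log2 ratios of the tested genes of each list (points, spread sideways at random) with the list's median (black bar). The members have a median of -0.18 with Shh apart at 0.73, the ventral telencephalic markers lie mostly above 0, and the hypothalamic and diencephalic markers mostly below.

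Markers of regions and of other cells also differed between the libraries (summed levels are over all genes of a list in the table), and their part in the values of Shh, Ptch1 and the GLI genes was not tested. Of 18 ventral telencephalic markers 15 were above 0, where 51% of all tested genes were. Their median was 0.37 and their summed level 2064 CPM against 1622 CPM. Intervals lay above 1 for 13 and below 1 for Isl1 alone (0.808, 0.715 to 0.912), beside 12.6% and 11.2% of all tested genes. Of 17 tested markers of hypothalamus and diencephalon 16 were below 0, where 49% of all tested genes were. Their median was -0.85, and the list's summed level was 93.0 CPM against 180 CPM. Otp had 71 counts against 262. Of 4 tested genes of floor plate, basal plate and zona limitans 3 were below 0 (49% of all tested genes). Their median was -0.50. Spon1 had 132 counts against 181 (0.754, 0.598 to 0.949), Lmx1a 7 against 16 and Sim2 1 against 11. The 7 genes of that list in the table summed to 87.9 CPM against 94.4 CPM, of which Ntn1 held 71.2 CPM and 70.1 CPM. The 10 dorsal telencephalic markers had a median of 0.05 and 3572 CPM against 3418 CPM. Erythroid markers summed to 654 CPM against 344 CPM and macrophage markers to 49.6 CPM against 35.5 CPM, while endothelial markers (128 CPM against 134 CPM) and mesenchymal ones (18.9 CPM against 22.1 CPM) were closer. Ectodermal markers summed to 2.29 CPM against 2.77 CPM, and of the notochord pair T had 9 counts against 3.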

How the data were processed

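RNA was sequenced from 1 H2AZ cKO and 1 floxed control sample. TopHat2 2.0.12, HTSeq 0.6.0, Bowtie2 2.2.3 and the build mm9 are named, without role or order, per the submitters' processing notes. The deposited gene positions match GRCm38: 78.7% equal those of GENCODE M21. The series text speaks of triplicates, while the deposited table has 1 column of whole read counts per genotype. No source used here says whether it pools replicates. The column headed WT was taken as the floxed control. The authors' CPM equals the counts over a constant per library, with 0 written as 0.5 read. In the deposited table the fold is one CPM over the other and the log2 column its logarithm. The test behind the deposited p-value columns is named in no source used here.

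From the counts, TMM factors (0.986 and 1.01) came from edgeR 4.0.16, ratios and intervals from Python 3.11.15 with scipy 1.17.1, and 1 CPM was added before the log2. No source used here names molecular identifiers, so several reads may come from 1 molecule, and intervals cover counting error only. A gene at 0 may reach 0.344 CPM (knockout) or 0.333 CPM (control), which 3 counts would give. Symbols were matched by identifier for 19112 genes. Lengths and GC content came from GENCODE M21. The members and lists were chosen with earlier results of these data known. Genes are named by a rule: all members, up to 6 per pathway list with an interval beyond 1, and the most abundant or most different markers, of which only some are printed. Some genes of the lists are not reported here. Xist, Kdm5d, Ihh, Dhh, Rax, Isl1 and the neighbours of Shh were named after their values were seen. Alternatives were pseudocounts of 0.1 and 5 CPM, no floor, a 5 CPM floor, scaling by total count, by DESeq2 1.42.0 size factors or by upper quartile, the deposited CPM, and removal of the length, GC and level trend.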

Additional observations from a re-analysis of the deposited data

How the results depend on the processing

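Shh and Disp1 stayed above 0, and Ptch1, Smo, Sufu, Gli1, Gli2 and Gli3 below, under all 9 alternatives. The log2 ratio of Shh ran from 0.45 with a pseudocount of 5 CPM to 0.86 with 0.1 CPM, that of Gli1 from -0.49 to -0.34, and that of Ptch1 from -0.32 to -0.14. Hhip, absent with a floor of 5 CPM, turned to 0.13 once the trend on length, GC and level was taken out. With a pseudocount of 5 CPM 0 members were 1.5-fold higher, and scaling by total count or the deposited CPM put 2 members lower by at least 20% in place of 1. Over all genes, a pseudocount of 5 CPM left 383 genes at least 25% higher and 483 at least 20% lower, and 29 and 59 at 1.5-fold. A floor of 5 CPM left 580, 710, 90 and 161, by construction with fewer genes tested, and a pseudocount of 0.1 CPM gave 590 and 816 at 1.5-fold, beside 280 and 442. The near-zero medians of the GLI-responsive list and of the ligand release list each turned to -0.032 under scaling by total count and with the deposited CPM, and to -0.018 and -0.015 with DESeq2 size factors. Leaving out a replicate was not possible with 1 library per genotype. No paired analysis was possible because each genotype has 1 column. Depth limits Hhip, at about 10 counts.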
